A study of Mus musculus with 4 samples.

Results

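The 10 genes described here were Trp53, which encodes the transcription factor p53, and 9 genes named as its targets or as inhibitors of cyclin-dependent kinases (CDKs): Mdm2, Cdkn1a, Cdkn1b, Cdkn2a, Cdkn2b, Ccng1, Gadd45a, Sfn and Bax. They were found by gene name among the 54752 gene identifiers of the series, 1 identifier for each name, by a rule that used names and no measured value. The names themselves were chosen with earlier results of these data known. p53 is held at a low level by the ubiquitin ligase Mdm2 and accumulates after DNA damage and other stress, when it activates genes that stop the cell cycle, repair DNA or start apoptosis. CDK inhibitors bind the kinases that drive cells through G1 and into S phase. In the epidermis, basal keratinocytes leave the cell cycle as they move up and differentiate, and Cdkn1a and Sfn are among the genes known to act in that exit.

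Total RNA was sequenced from the epidermis of 4 C57BL/6 pups at postnatal day 0 (P0), 2 labelled Skiv2l ctl (controls below) and 2 labelled Skiv2lf/fl;K14-Cre (knockouts below). In the knockout pups both copies of Skiv2l, the gene for the helicase of the cytoplasmic RNA exosome, are floxed, and Cre is driven by the promoter of keratin 14, so that deletion takes place in keratinocytes and other cells of the epidermis keep the gene. The control pups were littermates. Under the name Skiv2l ctl the study pooled animals with 1 or 2 floxed copies and no Cre, and animals with K14-Cre and 1 floxed copy. Which of these each control pup was is not given in the labels, so Cre itself may or may not be present in a control. Each pup is a separate animal and gave 1 library. The question is which of these genes changed in their messenger RNA when keratinocytes lost Skiv2l.

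Depth was similar in the 4 libraries, between 5.843 and 6.274 aligned gigabases estimated by dividing coverage by FPKM (sequenced fragments scaled for transcript length and for library size). Skiv2l itself was listed at 19.3 and 19.1 FPKM in controls, against 10.8 and 8.55 FPKM in the knockouts, and the change of -0.92 on the log2 scale (limma adjusted p = 0.00368) follows the labels. The tissue also followed its label: Krt5 and Krt10, keratins of the basal and suprabasal layers, were at 1759 to 2075 FPKM and 6378 to 10220 FPKM, while none of 6 muscle markers reached 0.5 FPKM. Over the 13609 protein-coding genes tested, the median log2 fold change was -0.20. With all libraries brought to one median FPKM this median was -0.03, and under quantile normalization it was -0.05. A gene at about -0.20 on the deposited scale therefore moved as much as the middle gene of these libraries, and the changes below are read against that value.

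The genes spanned a wide range of levels. FPKM is scaled for transcript length, so levels can be ranked between genes: in all 4 libraries the order from the top was Sfn, Cdkn1a, Trp53 and Mdm2, and Cdkn2a was last. Sfn stood between the 99.5th and 99.8th percentiles of the tested genes. Cdkn1b, Cdkn2b, Bax, Ccng1 and Gadd45a formed a group between 5.73 and 16.4 FPKM in which the order differed from library to library, so that these neighbours could not be ranked. Cdkn2a was listed at 0 FPKM in 3 libraries and at 0.0383 FPKM in the first knockout library, and it was the 1 gene of the 10 that did not pass the filter of FPKM above 0.5 in at least 1 sample.

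**Figure D1:**
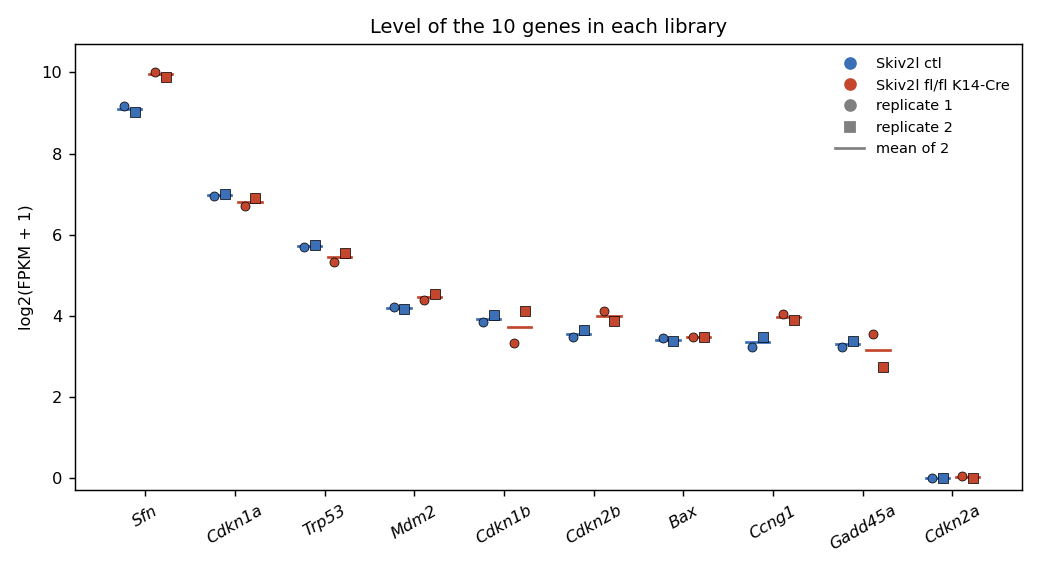
Level of each of the 10 genes in each library, as log2(FPKM + 1) on the vertical axis, with controls in blue, knockouts in red, circles for replicate 1, squares for replicate 2 and a line at the mean of 2. Sfn, Ccng1, Cdkn2b and Mdm2 were higher in both red points than in both blue points, and the red points of Cdkn1b and Gadd45a lay far apart.

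Of the 9 genes that passed the filter, 3 rose in knockout epidermis at an adjusted p under 0.05 (limma on log2(FPKM + 1), Benjamini-Hochberg adjustment over all 13609 genes) and none fell. The genes that rose were Sfn, Ccng1 and Cdkn2b. Over all tested genes 8.99% were called higher and 25.4% lower. At an unadjusted p under 0.05, 5 of the 9 genes passed, 4 of them higher (Sfn, Ccng1, Cdkn2b and Mdm2) and 1 lower (Trp53), and over all tested genes 47.6% passed in either direction. With TPM, in which each library sums to the same total, in place of FPKM, the fall of Trp53 was called (adjusted p = 0.0382), and 30.5% of all tested genes were called lower and 8.48% higher. With all libraries brought to one median, or with quantile normalization, 4 rose and none fell, with Mdm2 added to the other 3; the shares over all tested genes were then 13.9% higher and 11.9% lower, and 12.4% higher and 14.1% lower. For 5 genes (Sfn, Ccng1, Cdkn2b, Mdm2 and Bax) the knockouts both exceeded the higher control, and for 2 (Trp53 and Cdkn1a) they both lay under the lower one, while Cdkn1b and Gadd45a overlapped. Over all tested genes 18.2% lay above, 55.3% below and 26.5% overlapped. An exact permutation test over 2 pups against 2 gave its smallest possible two-sided p, 0.333, for each of the 7 genes without overlap, so the calls rest on the spread that limma shares across genes. In data of this size simulated with the spread limma fitted, it recovered 84% of genes changed 2-fold and 99% of genes changed 4-fold. Each of the 9 genes changed less than 2-fold (Sfn most, with a ratio of means of 1.80). These rates therefore do not tell how often changes of their size would be called.

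**Figure D2:**
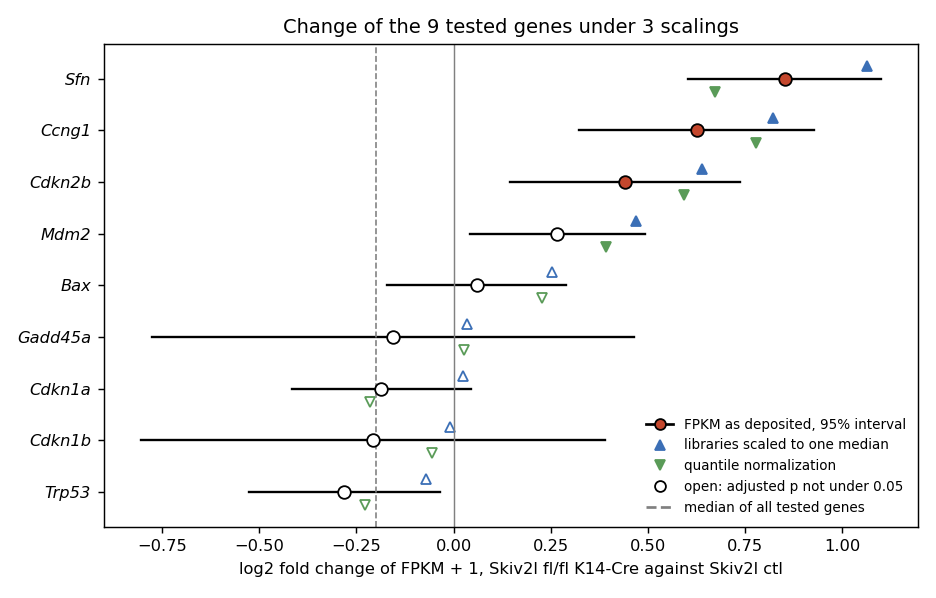
Log2 fold change of FPKM + 1 (horizontal axis) for the 9 tested genes, with 95% intervals for the deposited FPKM as circles, and the same change after scaling to one median (triangles up) or quantile normalization (triangles down). Filled symbols have an adjusted p under 0.05, and the dashed line marks the median of all tested genes at -0.20; Sfn, Ccng1 and Cdkn2b are filled under all 3 scalings and Mdm2 under the last 2.

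Trp53 (ENSMUSG00000059552.13) is at 69580359 to 69591873 on chromosome 11 (GRCm38, plus strand). It was at 50.6 and 52.99 FPKM in controls, against 39.3 and 45.9 FPKM in the knockouts. Both of the latter were below both controls, and the log2 fold change of -0.28 (95% interval -0.53 to -0.04, limma adjusted p = 0.0750) did not pass the test. With the libraries scaled to one median it was -0.07, close to the -0.03 of the middle gene there. Messenger RNA says little about the amount of p53, which is set mainly by protein stability, and protein was not measured in these files.

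Mdm2 (ENSMUSG00000020184.15, chromosome 10, 117688875 to 117710758, minus strand) encodes the ligase that marks p53 for degradation and is itself a p53 target, which closes a feedback loop. Its FPKM was 17.6 and 17.04 in controls, against 20.04 and 22.1 in the knockouts. The groups did not overlap, and the log2 fold change of 0.27 (standard error 0.09) missed the threshold on the deposited FPKM (limma adjusted p = 0.0690). It passed with median scaling (0.47, adjusted p = 0.0180) and with quantile normalization (0.39, adjusted p = 0.0272). The ratio of Mdm2 to Trp53 FPKM within a library, which no single scaling factor per library can move, was 0.347 and 0.322 in controls, against 0.510 and 0.481 in the knockouts. With Mdm2 higher and Trp53 lower in both knockouts than in both controls, these ratios could not overlap between the groups. Their separation therefore adds nothing to the values of each gene.

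p53 binds a site made of a pair of 10-letter elements. Among the starts of the 10 genes in RefSeq (12 promoters of 250 bases before and 50 bases after the start, build GRCm38.p6), 2 held a 20-letter match with at most 1 mismatch, no spacer and the C and G that bound each 4-letter core kept, 1 upstream of Cdkn1a and 1 upstream of Ccng1. Such a match was present in 0.067% of all 32851 mouse promoters, and a single exact element in 8.356%. The 10 genes include named p53 targets, and the motif was chosen after the sequences were seen. These rates are background only, and enrichment was not tested. The sites are shown because these are the only such matches among the 12 promoters, and Cdkn1a and Ccng1 had unlike values. Stretches outside these windows and pairs of elements with a spacer were not searched, so the other genes may have sites elsewhere. A match is a stretch of letters and not a measurement of binding. Capitals mark the place of the 4-letter cores, and each sequence has 1 mismatch. That of Cdkn1a lies in the flank of its second element, so both cores match, while that of Ccng1 lies inside the core of its first element. The Cdkn1a site lies at chr17:29090928-29090947 on the plus strand, 51 to 32 bases upstream of the first of its RefSeq starts, and the Ccng1 site at chr11:40755462-40755481 on the minus strand, 195 to 176 bases upstream of its start.
Cdkn1a: gaaCATGtcttgaCATGttc
Ccng1: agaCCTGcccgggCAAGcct
The 250 bases upstream of both starts are given in full, with capitals on the 20-letter match and, for Cdkn1a, on a further exact 10-letter element before it. They span chr17:29090729-29090978 on the plus strand and chr11:40755287-40755536 on the minus strand.
Cdkn1a upstream: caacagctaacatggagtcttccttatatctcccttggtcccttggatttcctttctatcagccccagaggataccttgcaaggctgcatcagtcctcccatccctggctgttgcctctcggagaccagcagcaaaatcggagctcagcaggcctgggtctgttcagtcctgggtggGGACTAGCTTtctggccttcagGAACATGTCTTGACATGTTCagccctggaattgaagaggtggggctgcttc
Ccng1 upstream: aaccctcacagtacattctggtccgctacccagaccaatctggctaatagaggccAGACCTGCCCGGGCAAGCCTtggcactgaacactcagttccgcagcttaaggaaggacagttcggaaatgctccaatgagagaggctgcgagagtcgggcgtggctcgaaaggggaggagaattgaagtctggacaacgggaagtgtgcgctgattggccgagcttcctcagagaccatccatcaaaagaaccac

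Cdkn1a (ENSMUSG00000023067.14, chromosome 17, 29090976 to 29100727, plus strand) encodes p21, the CDK inhibitor through which p53 arrests cells in G1. Its FPKM was 123 and 128 in controls, against 103 and 118 in the knockouts. Both of the latter were lower, but the log2 fold change of -0.19 (95% interval -0.42 to 0.04, limma adjusted p = 0.170) did not pass the test and was close to the -0.20 of the middle gene. With median scaling it was 0.03. The upper end of this interval lay below the lower end of that of Ccng1 (0.32), and the difference between both genes was not tested. The table gives 1 value for the gene although RefSeq lists 2 starts, so transcripts from the start next to the site shown were not separated from those of the other start. Of the 75-base stretches of its transcripts, 7.05% also occur in other genes, among them a gene on the other strand, and whether the counting used strand is not given in the sources used here.

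Ccng1 (ENSMUSG00000020326.7, chromosome 11, 40748552 to 40755311, minus strand) encodes cyclin G1, a p53 target that binds regulatory subunits of the phosphatase PP2A. It was at 8.33 and 10.2 FPKM in controls, against 15.5 and 13.97 FPKM in the knockouts. The groups did not overlap, and the log2 fold change was 0.62 (standard error 0.12, limma adjusted p = 0.0130). None of the stretches of its transcripts occur in other genes. The call held in 12 of 14 settings and was lost without the first control (adjusted p = 0.0947) and without the second (adjusted p = 0.0507). Of its close relatives and partners, Ccng2, which encodes cyclin G2, was at 7.98 and 10.8 FPKM in controls, against 10.8 and 16.7 FPKM in knockouts and did not pass (log2 fold change 0.49, adjusted p = 0.134), Ppp2r5c, a PP2A subunit gene, fell by 0.36 on the log2 scale (adjusted p = 0.0191) but was not called without either control or under the other scalings, and Gak, the cyclin G-associated kinase, was at -0.01 (adjusted p = 0.913).

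Besides Cdkn1a and Ccng1, the wider p53 target list held 1 more gene with such a site, Rps27l, a ribosomal protein paralog (chr9:66946296-66946315, plus strand, 117 to 98 bases upstream). It is shown because it moved the other way from Ccng1.
Rps27l: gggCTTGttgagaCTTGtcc
Its FPKM was 17.4 and 20.8 in controls, against 13.7 and 12.1 in the knockouts, a log2 fold change of -0.53 (limma adjusted p = 0.0203), and with median scaling it did not pass (adjusted p = 0.0796). Over all genes with such a promoter, 7 were tested, of which 1 rose (Ccng1) and 2 fell (Rps27l and Mthfd1, the latter an enzyme of folate metabolism named after its value was seen). That is 42.9% called, against 34.4% over all tested genes.

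Sfn (ENSMUSG00000047281.3, chromosome 4, 133600556 to 133602168, minus strand) showed the largest change of the 10. It encodes stratifin, the 14-3-3 sigma protein of epithelia, which holds CDK1 and cyclin B in the cytoplasm after DNA damage and is needed for normal keratinocyte differentiation. Its FPKM was 580 and 516 in controls, against 1028 and 949.9 in the knockouts, a ratio of means of 1.80. The groups lay far apart relative to their own spread, and the log2 fold change was 0.85 (95% interval 0.60 to 1.10, limma adjusted p = 0.00250). The call held in all 14 settings, between 0.67 with quantile normalization and 1.06 with median scaling. The single exon of Sfn shares 7.41% of its 75-base stretches with the processed pseudogenes Gm7850 and Gm5279, which were below 8 FPKM in all libraries.

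The other 6 tested members of the 14-3-3 family did not move as one. With Sfn counted, 3 of the 7 family genes rose and 2 fell, so that 71.4% were called. The background for this share was 34.4% of the 13609 genes, made up of 8.99% that rose and 25.4% that fell. Ywhag and Ywhaz rose (log2 fold changes 0.54 and 0.33, limma adjusted p = 0.00830 and 0.0256), Ywhae and Ywhaq fell (-0.32 and -0.29, adjusted p = 0.0336 and 0.0474), and Ywhab and Ywhah did not pass. The 2 falls were not called with median scaling or when any 1 library was left out, and the rise of Ywhaz was not called with quantile normalization (adjusted p = 0.116). Without either control library Sfn was the 1 family gene called. Sfn made up 50.8% and 47.0% of the summed FPKM of the 7 family genes in controls, against 62.8% and 60.7% in the knockouts. The 3 tested genes whose values over the 4 libraries lay nearest to those of Sfn, by Euclidean distance between centred log2(FPKM + 1) values, were Ppp2r1b, a scaffold subunit of PP2A (distance 0.0451), Ptprz1, a receptor tyrosine phosphatase (0.0648), and Serpinb3b, a serine protease inhibitor (0.0668). Ppp2r1b was at 9.23 and 8.37 FPKM in controls, against 16.9 and 15.9 FPKM in knockouts.

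Bax (ENSMUSG00000003873.11, chromosome 7, 45461697 to 45466898, minus strand) encodes a pore-forming protein of the BCL2 family that opens the outer mitochondrial membrane in apoptosis. Its FPKM was 9.91 and 9.42 in controls, against 10.1 in each knockout library. The values nearly touched, and the log2 fold change was 0.06 (95% interval -0.17 to 0.29, limma adjusted p = 0.644). Of its 75-base stretches, 6.84% also lie in Gm45808, an overlapping gene listed at 0.0320 FPKM or less. Of the 15 genes of the BCL2 family, 14 passed the filter, 1 rose and 2 fell, so that 21.4% were called against 34.4% of all tested genes, and without either control library none fell. The rise was that of Pmaip1, which encodes the BH3-only protein Noxa and is a p53 target, at 5.21 and 5.11 FPKM in controls, against 17.3 and 12.9 FPKM in the knockouts (log2 fold change 1.37, adjusted p = 0.00173). The falls were those of the BH3-only genes Bik (-1.12, adjusted p = 0.00739) and Bmf (-0.74, adjusted p = 0.0188), and Bmf was not called with median scaling (adjusted p = 0.0505). Bbc3, which encodes the p53 target Puma, was at 4.37 and 6.81 FPKM in controls, against 6.06 and 6.47 FPKM in knockouts, and these groups overlapped; it is named here after its value was seen.

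Gadd45a (ENSMUSG00000036390.8, chromosome 6, 67035096 to 67037457, minus strand) encodes a stress-induced protein that binds PCNA and p21. It was at 8.45 and 9.48 FPKM in controls, against 10.8 and 5.73 FPKM in the knockouts. One of the latter lay above and the other below both controls. These libraries differed 1.89-fold, where the median tested gene differed 1.10-fold between them on the FPKM + 1 scale, and the log2 fold change of -0.16 had a 95% interval of -0.78 to 0.46 (limma adjusted p = 0.652). Without the first knockout library it was -0.56 (adjusted p = 0.0260), and without the second it was 0.25. Exons of a gene on the other strand hold 13.9% of its 75-base stretches. Gadd45b, at 17.2 and 19.4 FPKM in controls, against 15.9 FPKM in both knockout libraries, and Gadd45g, between 5.49 and 6.53 FPKM in all libraries, did not pass either (adjusted p = 0.174 and 0.744).

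The remaining CDK inhibitors belong to the CIP/KIP group, which act mainly on CDK2, and to the INK4 group, which act on CDK4 and CDK6. Cdkn1b (ENSMUSG00000003031.14, chromosome 6, 134920401 to 134925513, plus strand) encodes p27, a brake on entry into S phase. Its FPKM was 13.4 and 15.2 in controls, against 9.10 and 16.3 in the knockouts. As for Gadd45a, one of these lay below and the other above both controls, here 1.80-fold apart and in the opposite order. The log2 fold change of -0.21 had a 95% interval of -0.80 to 0.39 (limma adjusted p = 0.528). It was 0.18 without the first knockout library and -0.60 without the second (adjusted p = 0.0237).

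Cdkn2b (ENSMUSG00000073802.5, chromosome 4, 89306299 to 89311039, minus strand) encodes p15, an INK4 inhibitor known as a target of TGF-beta. It was at 10.2 and 11.5 FPKM in controls, against 16.4 and 13.7 FPKM in the knockouts. The groups did not overlap, and the log2 fold change was 0.44 (standard error 0.12, limma adjusted p = 0.0364). This call lay near the threshold: it held in 8 of 14 settings, and it was lost without either control (adjusted p = 0.199 without the first and 0.114 without the second) and without the first knockout library (0.0941). The other 3 losses, with adjusted p between 0.0503 and 0.0771, came with all annotated genes, without the trend and with no filter. Its neighbour Cdkn2a (ENSMUSG00000044303.6, chromosome 4, 89274471 to 89294653, minus strand) gives rise to p16, an INK4 inhibitor, and, from another start, to p19ARF, which inhibits Mdm2. The deposited value covers both transcripts, and as given above it was at or near 0 in every library. The tables also list all 37 mitochondrial genes at 0, so a listed 0 need not mean that the RNA was absent.

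Of the inhibitors outside the 10 genes, Cdkn1c and Cdkn2c changed and Cdkn2d did not pass. Cdkn1c, an imprinted CIP/KIP gene that encodes p57, was at 3.29 and 3.61 FPKM in controls and rose to 7.74 and 9.32 FPKM (log2 fold change 1.09, limma adjusted p = 0.00227). Cdkn2c, which encodes p18, was at 7.62 and 7.71 FPKM in controls and fell to 3.08 and 2.63 FPKM (log2 fold change -1.17, adjusted p = 0.00132). Cdkn2d, which encodes p19INK4d, was at 5.49 and 4.89 FPKM in controls, against 3.58 and 6.35 FPKM in knockouts, with the groups overlapping as for Cdkn1b (adjusted p = 0.770). In all, 6 of the 7 inhibitor genes passed the filter, 2 rose and 1 fell, and the same counts were found under both other scalings. Over all tested genes 34.4% were called in either direction. Without either control or without the first knockout library 1 inhibitor gene rose, and without the second knockout library 2 fell. The summed FPKM of the 7 was 163.4 and 171.3 in controls, against 143.3 and 166.6 in the knockouts. Cdkn1a made up 75.6% and 74.9% of this sum in controls, against 72.1% and 71.0% in the knockouts, so that the most abundant inhibitor at the messenger level was the same in every library.

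Several of the kinases and cyclins that these inhibitors bind changed. Of 9 G1 cyclin and kinase genes, all of which passed the filter, 1 rose and 5 fell, where over all tested genes 8.99% were called higher and 25.4% lower. Under median scaling, under quantile normalization and without either control library 1 rose and 2 fell. Ccnd2, which encodes cyclin D2, fell from 97.0 and 113 FPKM to 48.6 and 41.2 FPKM (log2 fold change -1.21, limma adjusted p = 0.00126). Cdk4 fell from 82.7 and 94.6 FPKM to 52.1 and 53.6 FPKM (-0.73, adjusted p = 0.00311), and its close relative Cdk6 rose from 20.3 and 22.5 FPKM to 40.7 and 39.2 FPKM (0.87, adjusted p = 0.00160). Cdk6 thus made up 19.7% and 19.2% of the summed FPKM of Cdk4 and Cdk6 in controls, against 43.8% and 42.3% in the knockouts. Ccnd3, Ccne2 and Cdk2 fell on the deposited scale (-0.45, -0.52 and -0.31) and were not called with median scaling. Ccnd1, Ccne1 and Cdk7, at -0.20, 0.03 and -0.34, did not pass.

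Downstream of these kinases, E2F factors and their pocket protein partners set the S phase program. Of 11 such genes, 1 rose and 4 fell, 45.5% of the list against 34.4% of all tested genes. Without either control library none rose and 2 fell, and without the first knockout library 2 rose. E2f1 and E2f2, both activators, fell by 0.96 and 1.46 on the log2 scale (limma adjusted p = 0.00254 and 0.00285), and E2f7, an atypical repressor, rose by 0.61 (adjusted p = 0.00707). These 3 calls were also made with median scaling and quantile normalization, and those of E2f3 and E2f6, at -0.44 and -0.43, were not, while 2 of the 11 genes rose under each of those scalings. Rb1, Rbl1 and Rbl2 did not pass. Of 17 proliferation genes 12 fell and none rose, where 25.4% of all tested genes fell, and without either control library the number that fell was 3. On the deposited scale the list had its largest falls in Mcm6 (-0.95), Mcm2 (-0.88) and Tyms (-0.73), genes of DNA replication and nucleotide synthesis; the number that fell was 6 with median scaling and 8 with quantile normalization. Mki67, named here after its value was seen, was at 26.9 and 24.4 FPKM in controls, against 16.7 and 15.5 FPKM in knockouts (-0.64, limma adjusted p = 0.00514). The study reported more proliferating basal keratinocytes in P0 pups of this knockout, by Ki67 staining and flow cytometry of the cell cycle. Those measures, of protein and DNA, were not analysed here. FPKM is scaled to each library, so in a bulk tissue a lower value need not mean fewer cells of a type. Fewer such cells, a smaller share of them in the tissue and less RNA per cell cannot be told apart. This holds here and for every value of this report.

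**Figure D3:**
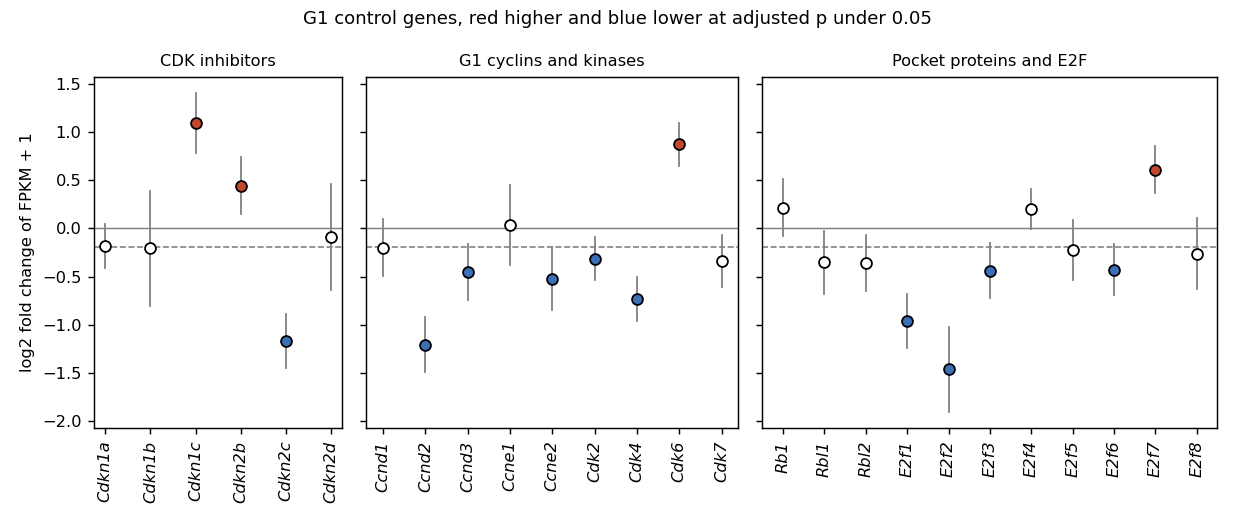
Log2 fold change of FPKM + 1 with 95% intervals for the 6 tested CDK inhibitor genes, 9 G1 cyclins and kinases and 11 pocket protein and E2F genes, with red for higher and blue for lower at an adjusted p under 0.05 on the deposited FPKM. The dashed line is the median of all tested genes at -0.20; Cdkn1c, Cdkn2b, Cdk6 and E2f7 rose, Cdkn2c, Ccnd2, Cdk4, E2f1 and E2f2 fell under all 3 scalings, and the other blue points were not called with median scaling.

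The wider list of 43 known p53 target genes, which includes 6 of the 10 genes, had 41 that passed the filter. Of these 10 rose and 8 fell, and the median log2 fold change was 0.16 where that of all tested genes was -0.20. Without the first control library 5 rose and 1 fell, without the second 4 rose and none fell, and without the second knockout library 10 rose and 5 fell. Over all tested genes the calls also dropped without a control, to 574 higher and 1024 lower without the first and to 542 and 804 without the second. With median scaling 15 rose and 2 fell, and with quantile normalization 13 rose and 2 fell. On the deposited scale 43.9% of the 41 were called in either direction, against 34.4% of all tested genes. Apart from Sfn, the largest rises were those of Plk2 and Plk3, polo-like kinases of the stress response (1.45 and 0.67), Pmaip1 (1.37), Phlda3, an inhibitor of AKT (0.88), and Dram1, an autophagy regulator (0.72). Plk2 was at 14.04 and 11.9 FPKM in controls, against 47.1 and 29.1 FPKM in the knockouts (limma adjusted p = 0.00523). Phlda3 was at 21.4 and 23.6 FPKM in controls, against 39.9 and 44.4 FPKM in the knockouts (adjusted p = 0.00207). Dram1 was under 0.5 FPKM in controls, at 0.274 and 0.302, and at 1.13 FPKM in both knockouts.

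Of the 8 falls among p53 targets, 2 held under both other scalings. Ak1, an adenylate kinase, fell from 2.44 and 2.33 FPKM to 0.912 and 0.607 FPKM (log2 fold change -0.95, limma adjusted p = 0.00568), and Pidd1, a death domain protein that activates caspase-2, fell from 4.53 and 4.35 FPKM to 2.70 and 2.15 FPKM (-0.67, adjusted p = 0.0123). Rps27l, Triap1, Pml and Btg2 fell by 0.53, 0.53, 0.53 and 0.44 on the log2 scale, and none of these 4 was called with median scaling or quantile normalization. Gdf15 and Spata18 did not pass the filter.

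**Figure D4:**
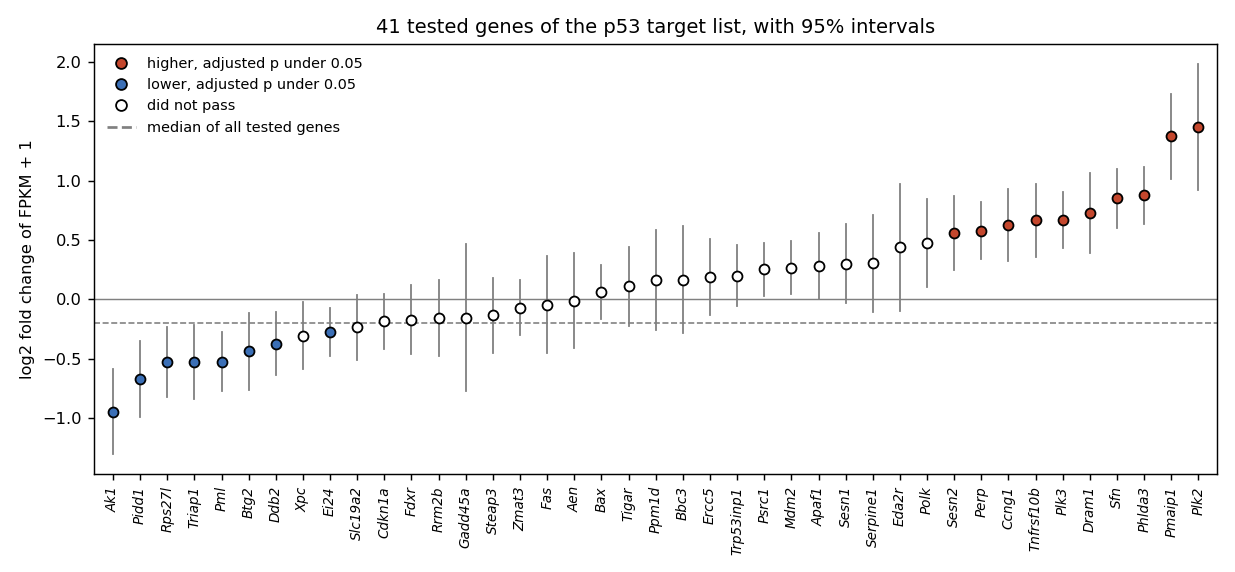
Log2 fold change of FPKM + 1 (vertical axis) with 95% intervals for the 41 tested genes of the p53 target list, in order of the change, with red for the 10 that rose and blue for the 8 that fell at an adjusted p under 0.05 on the deposited FPKM. The dashed line is the median of all tested genes; Mdm2, Bax, Gadd45a and Cdkn1a are open points between -0.19 and 0.27, while Ccng1 and Sfn are among the 10 in red.

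Among 16 genes of the p53 family and its regulators, none rose and 4 fell on the deposited scale, 25% of the list and close to the 25.4% lower over all tested genes. Without either control library none fell, and without the first knockout library 2 rose. Under each of the other 2 scalings 1 rose, Mdm2. Beside Mdm2 and Trp53 themselves, Trp63, which encodes p63 and maintains the basal layer, was at 88.9 and 99.9 FPKM in controls, against 85.7 and 92.7 FPKM in knockouts, and is named here after its value was seen. These overlapped, and Trp63 RNA exceeded that of Trp53 in every library. The genes that fell were the checkpoint kinase Chek1 (-0.52, limma adjusted p = 0.0298), the damage adaptor Trp53bp1 (-0.51, adjusted p = 0.0248), the kinase Hipk2 (-0.47, adjusted p = 0.0111) and the acetyltransferase Kat5 (-0.38, adjusted p = 0.0283). None of the 4 was called with median scaling, and Hipk2 was called with quantile normalization (adjusted p = 0.0260).

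Some markers of the cell types in the tissue also differed between the groups. Over all tested genes 8.99% were called higher and 25.4% lower, 34.4% in either direction. Among markers that passed the filter, 42.9% of basal, 42.9% of hair follicle, 28.6% of suprabasal and 33.3% of leukocyte markers were called. Of 7 basal keratinocyte markers 2 rose and 1 fell. Krt14 was at 1736 and 1812 FPKM in controls, against 7381 and 7312 FPKM in knockouts. Itgb4 rose as well (log2 fold change 0.60, limma adjusted p = 0.00662). Krt15 moved the other way, from 462 and 428 FPKM in controls to 92.1 and 155 FPKM in knockouts (-1.89, limma adjusted p = 0.00258). Of 7 suprabasal markers 2 fell, where 1 fell with median scaling and 5 fell with quantile normalization. The summed FPKM of the 7 hair follicle markers was 105 and 136 in controls, against 61.2 and 63.8 in knockouts, with 3 of 7 lower, and that of 8 leukocyte markers was 23.6 and 32.5 in controls, against 15.1 and 13.8 in the others, with 2 lower. Of 7 genes listed as neutrophil markers, 3 rose (S100a8, S100a9 and Cxcr2). S100a8 went from 0.370 and 1.27 FPKM in controls to 775 and 804 FPKM in knockouts. Which cells made this RNA was not tested, and by histology the study saw no apparent immune infiltrate in the dermis of P0 knockout pups. Ly6g and Elane were listed at 0 in all 4 libraries, and Mpo and Csf3r did not pass the filter either. Of 5 red cell markers 4 fell. Of 6 melanocyte markers 1 rose, of 6 fibroblast markers 2 fell (1 rose and 1 fell under both other scalings) and of 4 Schwann cell markers 1 rose, no endothelial marker was called (1 of 5 passed the filter), and of 4 adipocyte markers Fabp4 rose while Adipoq and Cidec were listed at 0. The part of these shifts in the changes of Sfn, Ccng1, Cdkn2b and the other genes was not tested. The second knockout library had fewer genes above 0.5 FPKM, 16138 where the others had 17384 to 17761, and Sfn, Ccng1 and Cdkn2b were called higher without it as well.

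**Figure D5:**
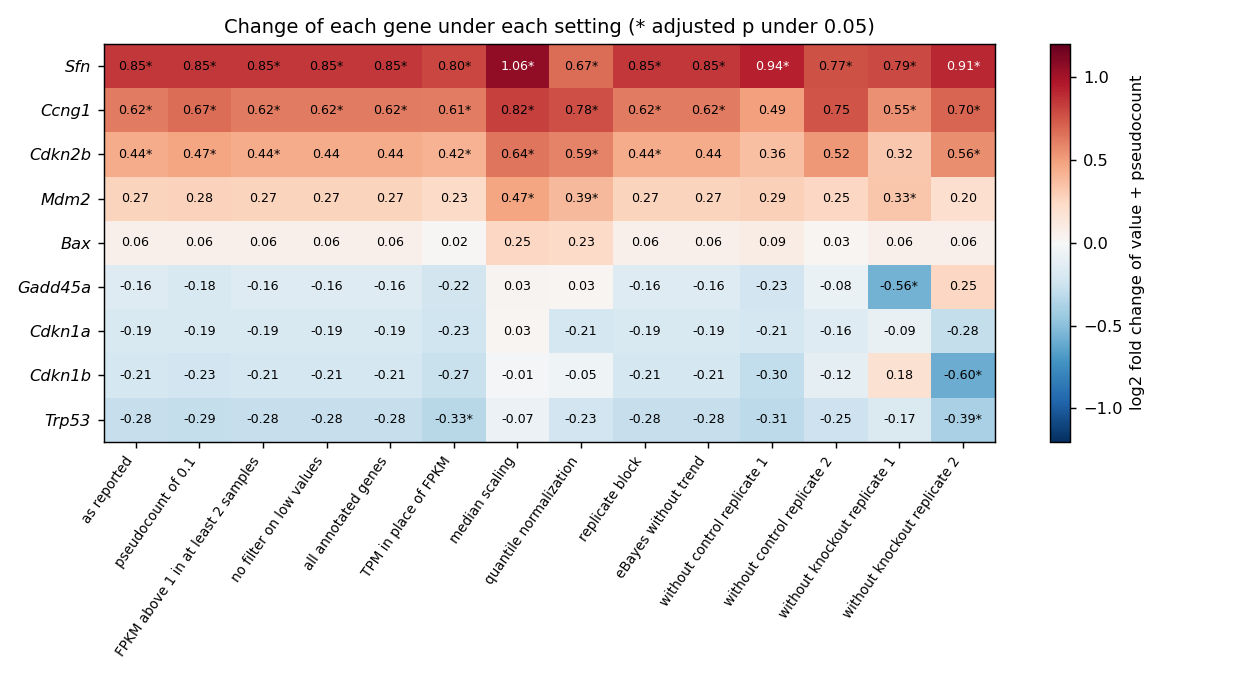
Log2 fold change of each of the 9 tested genes (rows) under the reported setting and 13 others (columns), with the color scale from lower (blue) to higher (red) and an asterisk for an adjusted p under 0.05. Sfn carries an asterisk in 14 columns, Ccng1 in 12 and Cdkn2b in 8, while Cdkn1a and Bax carry none.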

How the data were processed

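Each of the 4 libraries came with 1 table of FPKM, TPM and coverage per gene. The deposited FPKM values are fragments per gene after the authors' scaling for length and depth. TPM was also deposited and sums to one total per library, and so was coverage, a signal of mean depth per base. The submitters' processing notes name GRCm38; aligner and strandedness are not given in the sources used here. The coordinates equal those of GENCODE M21 for 54029 of 54752 identifiers.

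FPKM was summed per identifier. The study's filter, a value over 0.5 in 1 sample or more, kept 13609 of 21921 protein-coding genes. limma 3.58.1 (R 4.3.3; lmFit, then eBayes with a mean trend) compared the groups on log2(FPKM + 1), two-sided, with Benjamini-Hochberg adjustment. Fold changes on this scale understate the change of low genes. No counts were used and counting error could not be computed, so the 2 pups per genotype limit the precision. In simulated data with 200 of 13609 genes changed limma made 10 false calls, and 1 with none changed.

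The 10 genes and the lists were chosen with earlier results of these data known. Genes named are the 10, Skiv2l, all CDK inhibitors, GADD45 genes, G1 cyclins and kinases and cyclin G partners, up to 6 called genes per direction of the other lists (3 for proliferation and marker lists), and the 3 nearest to Sfn. Alternatives were a pseudocount of 0.1, a filter at 1 in 2 samples, no filter, all annotated genes, TPM, scaling to one median, quantile normalization, a replicate block, eBayes without trend and leaving out each library. RefSeq promoters (GRCm38.p6) were searched on both strands, by motifs chosen after the sequences were seen; shared 75-base stretches were counted on GENCODE M21 transcripts. Proteins, staining and qRT-PCR were not analysed here.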

Additional observations from a re-analysis of the deposited data

Results flagged for a closer look

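Outside the protein-coding genes tested, 3 non-coding genes, known as p53-induced (Lncpint and Neat1) or sharing sequence with Sfn (Gm7850), were higher in knockout epidermis when all annotated genes were tested together (limma, Benjamini-Hochberg adjustment); they were picked after their values were seen. Lncpint, a long non-coding RNA known as p53-induced, was at 0.542 and 0.745 FPKM in controls, against 1.79 and 1.95 FPKM in the knockouts, a log2 fold change of 0.807 (adjusted p = 0.0172). Neat1, the RNA scaffold of paraspeckles and a known p53 target, was at 98.6 and 69.1 FPKM in controls, against 220.8 and 341.3 FPKM in the knockouts, a log2 fold change of 1.72 (adjusted p = 0.00629). Gm7850, a processed pseudogene that shares sequence with Sfn, was at 3.49 and 3.26 FPKM in controls, against 7.31 and 6.17 FPKM in the knockouts, a log2 fold change of 0.82 (adjusted p = 0.00896), close to the 0.85 of Sfn. How reads were divided between Gm7850 and Sfn was not tested.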

How the results depend on the processing

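Sfn, Ccng1, Cdkn2b, Mdm2, Bax and Trp53 kept their direction under all 13 alternatives. Cdkn1a turned to 0.0255 with median scaling and Gadd45a to 0.0334, and Gadd45a to 0.0277 with quantile normalization. With 1 library left out Gadd45a ranged from -0.563 (without the first knockout library) to 0.251 (without the second) and Cdkn1b from -0.598 (without the second) to 0.183 (without the first). Median scaling called 1894 genes higher and 1623 lower, and quantile normalization 1917 lower. Leaving out 1 library gave 542 to 1160 genes higher and 804 to 3226 lower, the smaller numbers without a control (574 and 542 higher, 1024 and 804 lower). It gave 1 to 3 of the 10 genes higher, 1 without either control, and 0 to 2 lower, Gadd45a without the first knockout and Trp53 and Cdkn1b without the second; with TPM 1 was lower, Trp53. Of the p53 targets, 4 to 14 were higher and 0 to 6 lower with 1 library left out (5 and 4 higher and 1 and 0 lower without the first and second control, and 5 lower without the second knockout library), 4 were lower with no filter, 2 with median scaling and 2 with quantile normalization. Where 1 library was left out, the lone pup was taken to vary like the other group. Over 11 settings the p53 family and regulators had 0 to 2 higher and 0 to 4 lower, the G1 cyclins and kinases 1 higher and 2 to 5 lower, the CDK inhibitors 1 to 2 higher and 1 to 2 lower, pocket proteins and E2F 0 to 2 higher and 2 to 5 lower, and the 14-3-3 family 1 to 3 higher and 0 to 2 lower. With promoter matches of up to 2 mismatches, an alternative chosen after seeing the data, 52 genes were tested and 40.4% called. The causes were not tested.

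The pups share only a number in their labels, and deviations of same-numbered libraries correlated at r = -0.077 over 13609 genes. With the replicate block, 1264 genes were higher and 3393 lower, and of the 10 genes 3 were higher and 0 lower; no call among the 10 changed.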

Other observations

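Other non-coding genes near the 10 genes did not pass the filter or the test. Trp53cor1, the long non-coding RNA next to Cdkn1a also called lincRNA-p21, was at 0.0458 to 0.124 FPKM in the 4 libraries. Lockd, a transcript beside Cdkn1b, was at 0.637 and 1.03 FPKM in controls, against 0.467 and 0.620 FPKM in knockouts (log2 fold change -0.24, limma adjusted p = 0.366). E230016M11Rik, on the other strand at Gadd45a, was at 3.47 and 3.41 FPKM in controls, against 3.17 and 1.77 FPKM in knockouts, with the lowest value in the same library as for Gadd45a (adjusted p = 0.239). The Trp53 pseudogene Trp53-ps was below 0.12 FPKM in all libraries. Perp, a desmosomal p53 and p63 target, was at 897 and 995 FPKM in controls, against 1396 and 1424 FPKM in knockouts (log2 fold change 0.58, limma adjusted p = 0.00818), and under quantile normalization it did not pass (0.11, adjusted p = 0.345); like the non-coding genes, it was named after its values were seen.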
